A study of Mus musculus with 6 samples.

Results

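Stellate ganglia are the paired sympathetic ganglia at the base of the neck whose neurons send most of the sympathetic nerve supply to the heart. This account describes which genes gave signal, and how brightly, in the ganglia of sham-operated mice, the control group of a study of transverse aortic constriction (TAC), an operation that narrows the aorta and loads the left ventricle with pressure. The sham group was 3 male C57/Bl6 mice, labelled A, B and C, sampled 8 weeks after the sham operation. The other group was 3 male C57/Bl6 mice 8 weeks after TAC, and it is used here only to ask whether the order of the genes recurs. RNA from the 2 ganglia of 1 animal went on 1 Affymetrix GeneChip Mouse Genome array, and no age is given in the sources used here.

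The deposited table holds GCRMA intensities, a signal per probe set after background correction and normalization between arrays. A probe set is a group of short probes that together report 1 transcript. Values below are log2 of these intensities, so a step of 1 is a doubling. A single value given for a gene is the mean of the 3 arrays, 3 values are sham A, B and C in that order, and the median SD over genes was 0.12 (n = 3). A gene was counted as present when its brightest probe set, among those that carry exactly 1 gene symbol, had a mean log2 of at least 4 over the 3 sham arrays. Of 18193 genes measured in this way, 9957 (54.7%) reached that floor, and the ranks below run from 1 (brightest) to 9957. The share of 54.7% is the one to set beside each count of list genes at the floor. Signals of different probe sets mix RNA abundance with how well each set binds its target, so ranks are a guide to abundance and not a count of molecules. How far this goes is visible in genes read by several probe sets: in 3945 genes with at least 2 sets at the floor, the gap between the 2 brightest had a median of 1.29 and a 90th percentile of 3.42. Ranks, and words such as brightest or led, therefore give the order of signals on these arrays, and gaps of this size or less do not order genes by RNA amount.

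Postganglionic sympathetic neurons make noradrenaline from tyrosine. Tyrosine hydroxylase (Th) makes L-DOPA, aromatic amino acid decarboxylase (Ddc) makes dopamine, dopamine beta-hydroxylase (Dbh) makes noradrenaline inside vesicles, and the noradrenaline transporter (Slc6a2) takes released transmitter back. The neurons are driven by acetylcholine from spinal preganglionic fibres through nicotinic receptors, depend on nerve growth factor, and release neuropeptide Y (Npy) with noradrenaline. Satellite glia wrap each cell body, and Schwann cells, fibroblasts, macrophages and vessels fill the rest of the ganglion.

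The cAMP response element, the 8 letters TGACGTCA bound by CREB-family factors, is the same on both strands. It was looked for in the RefSeq promoter windows of mouse build GRCm38.p6, which run from 250 bases before to 50 bases after each gene's start. It is shown because it lies near the start of Th, Slc18a2 and some granin and peptide genes, and the capitals mark it. The genes shown were picked, and genes of other kinds, such as Rps9 and Ndufb2, also had the element. Th had it 45 bases before the start (chr7:142900013-142900060, minus strand).
Th: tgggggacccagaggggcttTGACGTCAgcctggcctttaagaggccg
Slc18a2, the vesicular monoamine transporter that loads vesicles, had it 4 bases before the start (chr19:59260854-59260901, plus strand).
Slc18a2: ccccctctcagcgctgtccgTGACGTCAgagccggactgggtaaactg
Scg2 (secretogranin II) had it 68 bases before the start (chr1:79440067-79440114, minus strand).
Scg2: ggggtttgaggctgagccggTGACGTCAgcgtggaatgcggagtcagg
Chgb (chromogranin B) had it 72 bases before the start (chr2:132781550-132781597, plus strand).
Chgb: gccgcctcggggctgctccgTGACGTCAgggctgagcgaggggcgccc
Pcsk1, a prohormone convertase, had it 78 bases before the start (chr13:75089759-75089806, plus strand).
Pcsk1: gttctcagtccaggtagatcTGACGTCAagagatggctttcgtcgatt
The peptide gene Cartpt had it 112 bases before the start (chr13:99900768-99900815, minus strand).
Cartpt: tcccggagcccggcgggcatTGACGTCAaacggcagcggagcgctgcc
The somatostatin gene Sst had it 48 bases before the start (chr16:23890865-23890912, minus strand).
Sst: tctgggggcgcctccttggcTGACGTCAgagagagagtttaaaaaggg

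Promoter windows matched 8104 of the 9957 genes at the floor by symbol. The element was present in 549 of 27025 genes of the promoter table (2.03%), in 3.73% of the genes at the floor, in 5.54% of the 794 matched genes among the brightest 10% and in 1.89% of the matched genes below the floor. It occurred in 3 of 10 matched genes of granins and peptide processing, in 2 of 11 of noradrenaline handling, in 3 of 23 neuropeptide genes and in 2 of 19 immediate-early genes. It occurred in 1 of 16 genes of the neuronal cytoskeleton, in 1 of 21 of synaptic vesicles, in 2 of 32 of complex I, in 2 of 43 ribosomal protein genes and in none of 11 nicotinic or 10 skeletal muscle genes. The element went with very different signals: Th stood at 13.59 and Scg2 at 12.94, while Pcsk1 stood at 8.28, Cartpt at 6.64 and Sst at 3.56, below the floor. Windows of genes at the floor were also richer in CpG, with a median of 21.5 CpG per window against 7 below the floor, and in G and C, with a median of 61.7% against 54.3%. A match describes letters only.

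The labelled tissue was checked against 5 markers of sympathetic neurons, and all 5 lay in the brightest 10% of genes. In the order sham A, B, C, Slc6a2 read 14.30, 14.61 and 14.39, with a mean of 14.44 ± 0.16 (SD, n = 3) and rank 8. Dbh measured 13.75, 13.92 and 13.90 (rank 37), and Npy measured 13.61, 13.83 and 13.87 (rank 46). Th measured 13.55, 13.56 and 13.66 (rank 58). Prph, which encodes the intermediate filament peripherin of peripheral neurons, measured 13.01, 13.06 and 13.08 (rank 130). The 5 genes were bright on each of the 3 arrays, and their SDs ran from 0.04 to 0.16. Dbh was read by 3 probe sets, all at the floor, with means of 13.86, 13.11 and 11.78. Slc6a2 had 4 probe sets at means of 14.44, 12.22, 9.72 and 8.66, which shows how much the choice of probe set moves a gene's level.

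**Figure D1:**
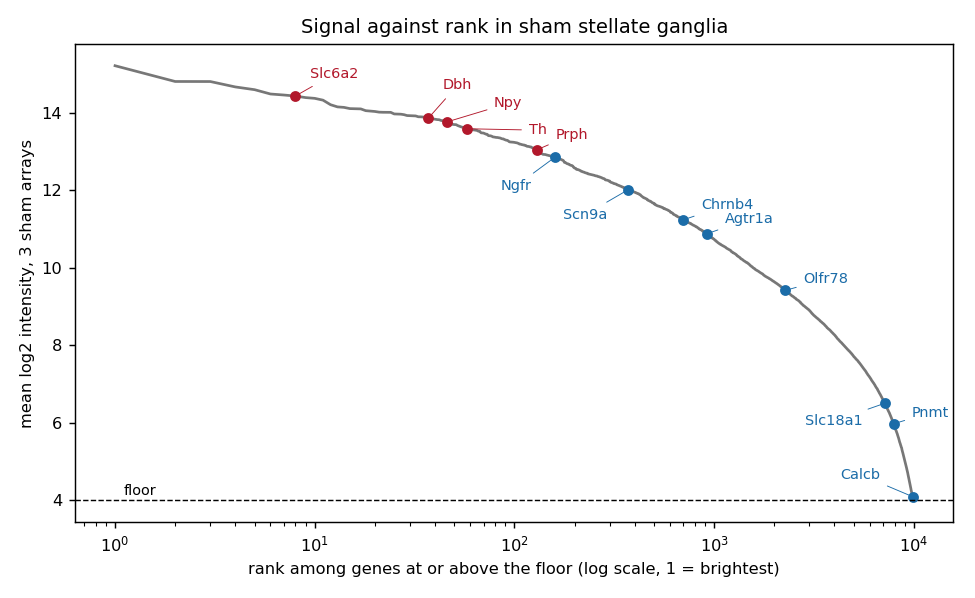
Mean log2 intensity (vertical axis) against rank among the 9957 genes at or above the floor (horizontal log axis) for the 3 sham arrays, with the 5 sympathetic markers in red and other genes of the text in blue. The sympathetic markers sit on the left shoulder of the curve, from 14.44 for Slc6a2 to 13.05 for Prph, while Calcb lies next to the floor at 4.10.

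The median of the 9957 genes was 7.73, and 2068 genes lay between 4 and 6, 3424 between 6 and 8, 2895 between 8 and 10, 1195 between 10 and 12 and 375 at 12 or more. A gene needed 10.75 to be in the brightest 10% and 13.24 to be among the brightest 100. At the floor itself, Phf12, Atrip and Zfp429 lay just inside and Vwa5b2, Macroh2a2 and Tec just outside, all within rounding of it.

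The brightest gene was Tmsb10, encoding an actin-binding thymosin, at 15.18, 15.21 and 15.26. Next came the constitutive chaperone gene Hspa8 (14.81), the ribosomal protein gene Rps29 (14.81), Gnas (14.67), which encodes the stimulatory G-protein alpha subunit, and Cox6a1 (14.60), a subunit of cytochrome c oxidase. Ddc was sixth, at 14.51, 14.50 and 14.46, and Slc6a2 eighth. The top 25 held 4 genes of the neuronal cytoskeleton list, Tuba1a (14.46), Tubb2a (14.11), Dpysl2 (14.02) and Stmn3 (14.02). The motor protein light chains Dynll1 (14.38) and Klc1 (14.14) were also there. The other genes of the top 25 were Akr1a1, Tpt1, Rpl13a, Tmsb4x, Rtn4, Actg1, Ndfip1, Ywhab, Ndrg4, Fth1, Hint1 and Snap25, between 14.40 for Akr1a1 and 13.97 for Snap25. Of the brightest 100 genes, 42 belonged to at least 1 of the gene lists and 58 to none. Cytosolic ribosomal proteins supplied 12 of them, the neuronal cytoskeleton 7 and noradrenaline handling 5 (Th, Ddc, Dbh, Slc6a2 and Cyb561). The share of all genes at the floor that belong to a list was not counted, so these numbers describe only the lists chosen.

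Genes of noradrenaline synthesis and handling lay high in the order. Of 16 measured, 15 (93.8%) reached the floor, against 54.7% of all genes, and the median over all 16 was 12.51, against 4.94 over all 18193 genes. Among the enzymes, Ddc, Dbh and Th ranked 6, 37 and 58. Pnmt, which turns noradrenaline into adrenaline in the adrenal medulla, measured 5.85, 6.05 and 6.03 (rank 7922), far below the other 3. In storage and reuptake, Slc18a2 measured 12.78, 12.59 and 12.62. Cyb561, which carries electrons into vesicles for use by dopamine beta-hydroxylase, measured 13.49, 13.46 and 13.50. The chromaffin-cell vesicular transporter Slc18a1 stood at 6.51 ± 0.06. Both measured enzymes of breakdown were bright, Maoa at 12.54 ± 0.06 and Maob at 12.48 ± 0.02. Tetrahydrobiopterin, the cofactor of tyrosine hydroxylase, is made by Gch1 (11.84), Pts (9.16) and Spr (7.42) and regenerated by Pcbd1 (11.17) and Qdpr (13.23). Its feedback regulator Gchfr measured 2.53, below the floor.

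**Figure D2:**
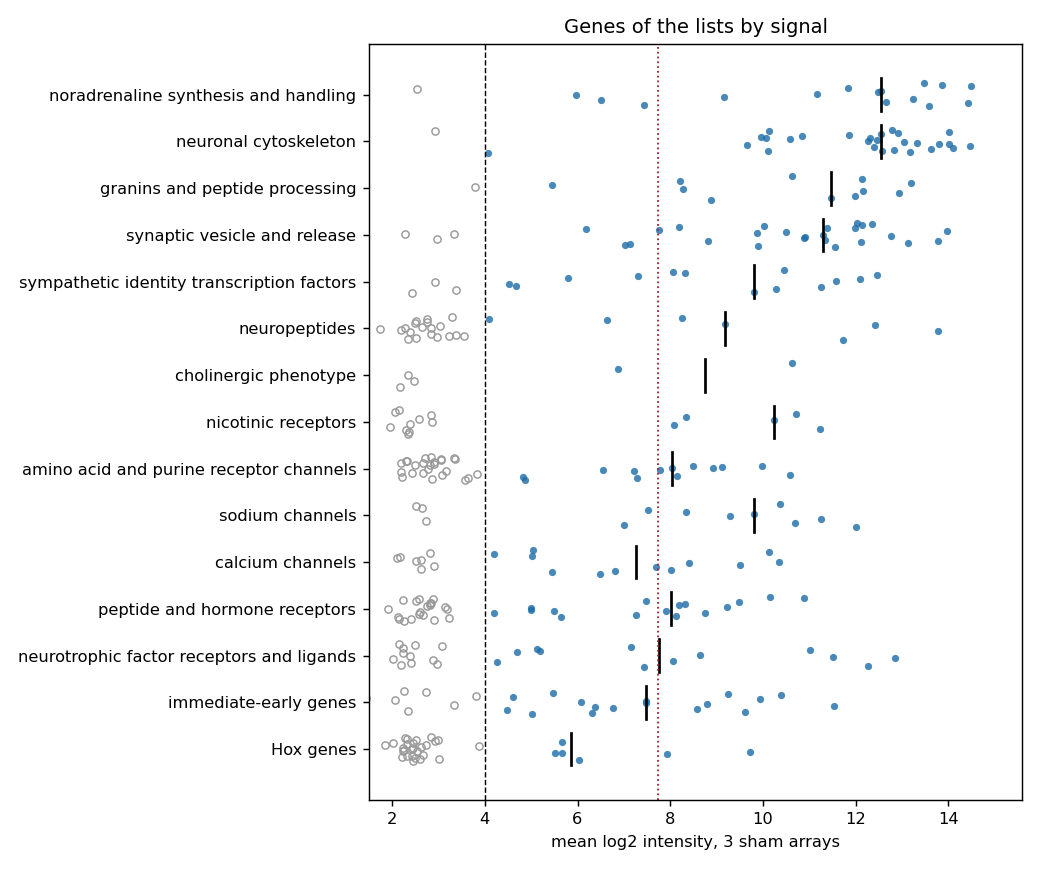
Mean log2 intensity over the 3 sham arrays of each measured gene in 15 gene lists (1 point per gene, open grey points below the floor, bars at the median of genes at the floor). The dashed line is the floor of 4 and the dotted line the median of the 9957 genes at the floor, 7.73; noradrenaline, cytoskeleton, granin and vesicle genes lie mostly right of the dotted line, while most neuropeptide, nicotinic and Hox genes are open points.

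Genes that build axons were bright too. In the neuronal cytoskeleton list 27 of 28 measured genes reached the floor, and the median over all 28 was 12.50. All 9 measured tubulins reached it, led by Tuba1a (14.56, 14.36 and 14.47) and Tubb2a (14.29, 13.92 and 14.12), while Tubb6 lay at 4.07. The neuron-specific Tubb3 stood at 12.82 ± 0.09. Among filament proteins, Prph was followed by Nefl (12.46), Nefm (12.27) and Nefh (10.59). Genes of axon growth were high: Stmn2 measured 13.80, Stmn1 13.33, Basp1 12.79 and Gap43, a growth-cone protein, 12.54 ± 0.04. Doublecortin (Dcx), a marker of immature neurons, measured 2.92 and was the gene below the floor.

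Release machinery was bright as well. Of 28 measured genes of synaptic vesicles and release, 25 reached the floor and the median over all 28 was 10.90. The SNARE protein gene Snap25 measured 14.01, 13.98 and 13.94, and the calcium sensor Syt1 measured 13.70, 13.82 and 13.79. Syt4 (13.14), Syn2 (12.77), Cplx1 (12.36) and Cadps (12.03), which primes dense-core vesicles, followed. The active-zone genes Unc13a (7.02) and Rims1 (6.17) were at the dim end, and Sv2c, Synpr and Sv2b measured 3.34 or less. Granins and peptide processing reached the floor in 11 of 12 genes, with a median over all 12 of 11.05. Carboxypeptidase E (Cpe) measured 13.30, 13.05 and 13.23, Scg2 13.02, 12.97 and 12.83, and Chgb 12.17, 12.11 and 12.15. Chga stood at 10.62 ± 0.10, and Pam, the peptide-amidating enzyme, measured 3.78.

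Few neuropeptide genes reached the floor. Only 7 of 27 did so (25.9%), a smaller share than the 54.7% of all genes. Npy led, followed by galanin (Gal) at 12.20, 12.64 and 12.42 (rank 238) and vasoactive intestinal peptide (Vip) at 11.58, 11.87 and 11.72 (rank 477). Endothelin 3 (Edn3) measured 9.18 ± 0.20, adrenomedullin (Adm) 8.26 ± 0.02 and Cartpt 6.64 ± 0.12. Calcb lay at the floor with 4.10. The 20 genes below it included Sst (3.56), Penk (3.38), Adcyap1 (3.28) and Tac1 (2.96). The cholinergic genes Chat (2.35), Slc18a3 (2.47), the vesicular acetylcholine transporter, and Slc5a7 (2.17), the choline transporter, were all below the floor, while the esterases Ache (10.46, 10.80 and 10.63) and Bche (6.88) were above it.

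Nicotinic receptors carry the input from the spinal cord. Of 15 measured nicotinic subunits, 5 (33.3%) reached the floor, against 54.7% of all genes. They were Chrnb4 (11.09, 11.45 and 11.18), Chrna3 (10.77, 10.74 and 10.61), Chrna7 (10.16, 10.46 and 10.10), Chrna5 (8.35) and Chrnb2 (8.07). The other 10 measured 2.86 or less. Chrna3 and Chrnb4 are the subunits of the main ganglionic receptor. Chrna7 had a further probe set at 2.42. None of 11 measured GABA-A subunits reached the floor, the highest being Gabrb1 at 3.36. The serotonin receptor channel gene Htr3a stood at 10.57 ± 0.18, the glycine receptor beta subunit Glrb at 9.98, and the AMPA subunits Gria2 (9.12), Gria4 (8.93), Gria1 (8.49) and Gria3 (8.03) were all at the floor. Only 3 of 5 listed muscarinic receptors and 2 of 9 listed adrenoceptors had a probe set with 1 symbol, and the rest were not measured. Of those measured, Chrm1 stood at 7.86 and Adra2c at 7.95, and Chrm3, Chrm4 and Adra1b were below the floor. Among peptide and hormone receptors 16 of 36 (44.4%) reached the floor, against 54.7% of all genes. The brightest were the angiotensin receptor Agtr1a (10.91, 10.89 and 10.85) and the PACAP receptor Adcyap1r1 (10.14, 10.12 and 10.17). The endothelin receptor Ednrb measured 9.48 and the Npy receptor Npy1r 4.99.

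Among channels that set firing, the sodium channel Scn9a was brightest, at 11.94, 12.15 and 11.97. Its neighbours were the beta subunit Scn3b (11.26), Scn7a (10.69) and the leak channel Nalcn (10.36), and 9 of 12 sodium channel genes (75.0%) reached the floor, against 54.7% of all genes. Scn10a (2.52) and Scn11a (2.64), channels of pain-sensing neurons, did not. For calcium channels 12 of 19 (63.2%) reached it, a share near that of all genes. The N-type pore gene Cacna1b stood at 10.14 ± 0.17 and the auxiliary Cacna2d1 at 10.35, while the other pore genes at the floor, Cacna1a, Cacna1e and Cacna1d, lay between 5.05 and 4.20. Of 81 potassium channel genes, 28 (34.6%) were at the floor, against 54.7% of all genes. Kcnq3, a subunit of the M-current that acetylcholine closes, measured 11.92, 11.95 and 11.93 and was the brightest. Kcnip4 (11.63) and Kcna1 (10.78) followed. Of the signalling proteins downstream of receptors, Gnas stood out at rank 4 and the regulator of G-protein signalling Rgs4 at 12.26, 12.38 and 12.10.

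Receptors and ligands of trophic signalling differed in signal. Of 13 measured receptors for neurotrophic factors, 12 reached the floor, and none of 10 ligands did. The receptors at the floor had a median of 7.75, close to the 7.73 of all genes at the floor. Among them, 4 lay in the brightest 10%. The p75 receptor gene Ngfr measured 12.79, 12.94 and 12.82, Ret, the signalling receptor of the GDNF family, 12.39, 12.25 and 12.16, the LIF receptor Lifr 11.51, and the neurturin co-receptor Gfra2 11.02. Among ligands the brightest was Clcf1 at 3.08. Transcription factors of sympathetic identity reached the floor in 13 of 16 genes (81.25%), against 54.7% of all genes. Hand2 led with 12.44, 12.49 and 12.48, then Isl1 with 12.12, 12.09 and 12.07, and Phox2a with 11.58 ± 0.06. Gata2 (10.44), Tfap2b (9.81) and Gata3 (8.06) were lower, and the sensory-neuron factors Pou4f1 (2.92) and Tlx3 (2.42) were below the floor. Of 33 Hox genes, which mark position along the body axis, 6 (18.2%) reached the floor, against 54.7% of all genes. They were Hoxc4 (9.73), Hoxc8 (7.92), Hoxd8 (6.04), Hoxa5 (5.67), Hoxc5 (5.66) and Hoxc6 (5.50).

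Several housekeeping families reached the floor in nearly all members. In complex I 34 of 36 genes reached the floor, in ATP synthase 17 of 17, and among cytosolic ribosomal proteins 44 of 49. Medians of those at the floor were 11.56, 11.94 and 12.53. Glycolysis reached it in 15 of 15, led by Aldoa (13.25), and the proteasome in 36 of 40. Cytochrome c oxidase did so in 11 of 17 (64.7%, against 54.7% of all genes), from Cox6a1 at 14.60 to Cox8b at 6.28. A value below the floor does not show that a gene is silent: the single-symbol probe sets of Rps16 (2.16), Rpl12 (2.39) and Cox7c (3.47) were dim although these are genes every cell uses. For Rps16, a set shared with gene copies, which the rule leaves out because it carries several symbols, read 14.13. There were 932 such sets, 475 of them at a mean of 4 or more. Families used mainly in the nose or in epithelia were dim: 1 of 38 odorant receptors reached the floor (2.63%), 1 of 31 vomeronasal receptors (3.23%) and 3 of 48 keratins (6.25%). The odorant receptor was Olfr78, at 9.24, 9.33 and 9.69.

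Other lists with members high in the order were those of chaperones, ion pumping and calcium binding. All 17 heat shock chaperone genes reached the floor, from Hspa8 (14.84, 14.78 and 14.81) and Hsp90aa1 (13.85) to the stress-inducible Hspa1a at 6.56. Of 10 sodium pump genes 8 did so, led by the beta subunit Atp1b1 at 13.33, 13.29 and 13.16 and the regulator Fxyd6 at 12.03. Of 14 genes of neuronal calcium handling 12 did so, led by S100a10 (13.64, 13.57 and 13.67) and S100a6 (12.42), while the calcium buffers Calb1 (2.80) and Calb2 (2.22) were below the floor. Among guidance genes, 20 of 31 semaphorins, plexins and neuropilins reached it, a share of 64.5% against 54.7% of all genes, led by Sema6d (11.60) and Nrp1 (11.07). These guidance genes were not high as a list: the median of those at the floor was 7.61. Of 18 clock genes 12 (66.7%) reached the floor, led by Nr1d2 at 9.95, 10.33 and 10.43. The clock genes at the floor were not high in the order: their median was 6.87, below the 7.73 of all genes at the floor. All 10 measured genes of MHC antigen presentation reached the floor, led by B2m, the class I light chain, at 13.08, 13.05 and 13.23.

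Marker genes of other cell types were read beside those of neurons, and their signals do not measure how many cells of a type the tissue held. In a bulk RNA sample, fewer cells of a type and less RNA per cell cannot be told apart. Of the satellite glia markers, 10 of 11 reached the floor, with Fabp7 at 14.08, 13.89 and 13.80 (rank 31), Apoe at 12.91 and Sox10 at 9.58. Gfap measured 2.69. Of 7 measured markers of myelinating Schwann cells, 4 (57.1%) reached the floor, a share near the 54.7% of all genes. Their median over all 7 was 9.26. Cnp (12.50), Pmp22 (12.42) and Mbp (11.92) were bright, while Mag (3.12) was among those below the floor. All 14 fibroblast genes reached the floor, led by Sparc (12.27) and Dcn (12.13). Macrophage markers did so in 11 of 13 (84.6%, against 54.7% of all genes), with Ctss at 9.52 and Csf1r at 8.79, and Cd68 at 2.34. Endothelial markers reached it in 5 of 10, a share close to the 54.7% of all genes. Those at the floor were Vwf (7.12), Esam (5.45), Emcn (4.31), Flt1 (4.21) and Cldn5 (4.19), while Pecam1 (2.38), Cdh5 (2.81) and Kdr (2.27) were below it. T cell markers reached it in 1 of 5, B cell markers in 1 of 4, mast cell markers in 1 of 6, and none of 5 proliferation markers or 6 cartilage and bone markers did. Sensory neuron markers reached it in 3 of 9. Avil measured 12.06, 12.17 and 12.13, Ntrk3 4.25 and Pvalb, which is also a muscle gene, 4.04, whereas Trpv1 (2.58), Tac1 (2.96) and P2rx3 (3.63) were below the floor.

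**Figure D3:**
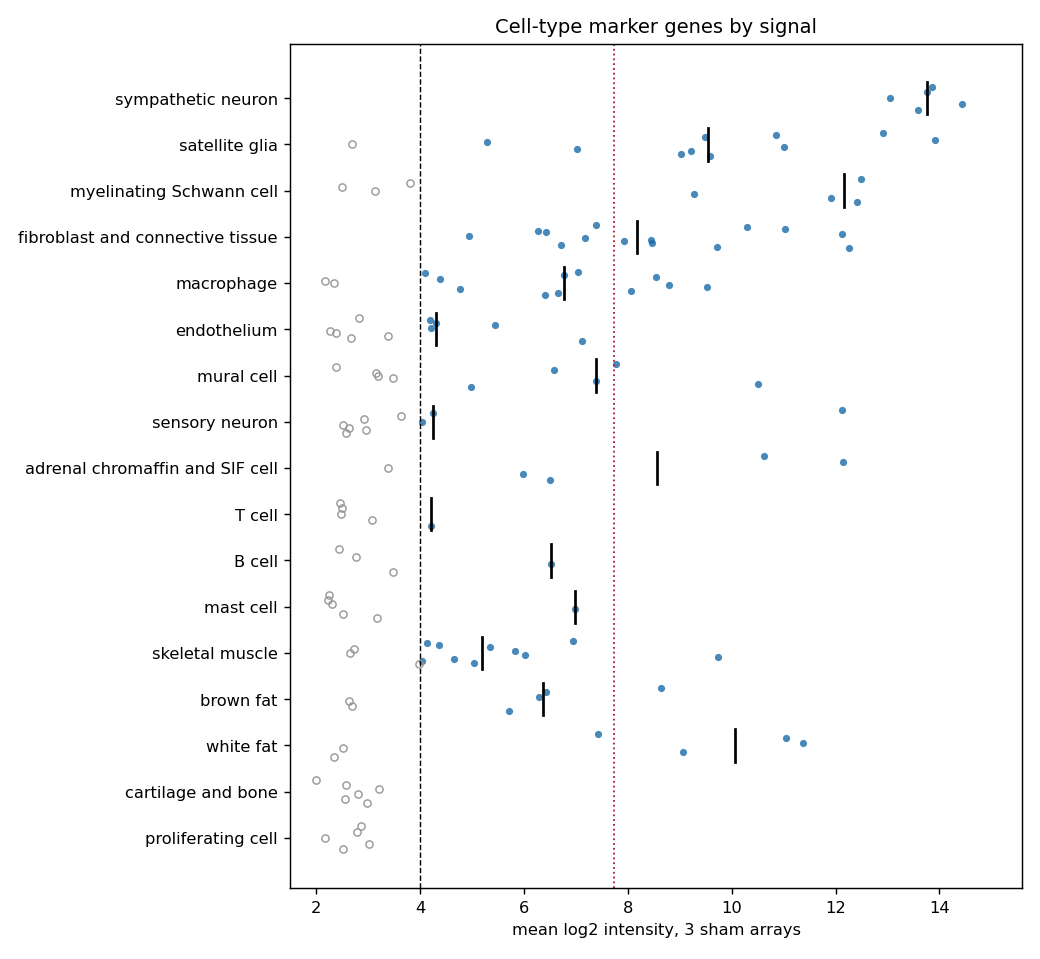
Mean log2 intensity over the 3 sham arrays of each measured marker gene for 17 cell types or tissues (1 point per gene, open grey below the floor of 4, bars at the median of genes at the floor). Sympathetic markers lie between 13.05 and 14.44, glial and fibroblast markers reach past 12, and the cartilage, bone and proliferation markers are all open points.

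The arrays ranked genes alike. Pairs of sham arrays correlated at r = 0.989 to 0.992 across the 9957 genes, a description across genes, which share the arrays and the normalization. The range between arrays had a median of 0.23 and a 90th percentile of 0.59. It was 1 or more in 215 genes (2.16%) and 2 or more in 24 (0.241%). Of these 24, sham B was lowest in 19, and the highest array was sham C in 17 and sham A in 7.

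Many of the genes that varied most encode skeletal muscle or fat proteins. Tnnc2, a fast-muscle troponin, measured 7.30, 2.40 and 8.32, and Myh4, a fast myosin, 7.25, 2.65 and 8.17. Myh1 measured 8.03, 2.95 and 6.52, and Acta1 (skeletal alpha-actin) 7.14, 4.52 and 9.18. In each of these sham B was lowest. Tnni2, Mylpf, Ttn, Pvalb, Ckm, Atp2a1 and Actn3 were also lowest on sham B. Of the 13 skeletal muscle markers 10 (76.9%) reached the floor, against 54.7% of all genes. The median over all 13 was 4.58 on sham A, 2.88 on sham B and 6.52 on sham C. Among those at the floor, Myl1 varied least, at 9.73, 9.46 and 10.01. Fat genes instead singled out sham C. Ucp1, the brown-fat uncoupling protein, measured 3.98, 4.64 and 8.53, Adipoq 6.91, 6.34 and 9.01, Cox8b 4.98, 5.58 and 8.30, and Fabp4 10.73, 10.75 and 12.63. Ces1d, a carboxylesterase gene, measured 5.73, 4.24 and 7.66. Among the other genes of the 20 of widest range, Cyp2e1, a cytochrome P450 gene, measured 6.63, 6.21 and 8.71, and Cd36, a fatty acid transporter, 4.80, 5.59 and 7.14. Zbtb16, a transcription factor gene, was instead lowest on sham A at 4.47 and had a range of 2.52. S100a8, a neutrophil gene, was highest on sham A, at 5.35, 3.16 and 3.58. The median over all 6 white fat markers measured was 7.59, 7.51 and 9.64, and over the 6 brown fat markers 4.48, 5.11 and 7.87. Leaving out sham C lowered the median percentile of the brown fat markers at the floor from 25.9 to 15.8. Leaving out sham B raised that of skeletal muscle from 11.2 to 24.2. The SDs of the 5 sympathetic markers were at most 0.16 on the same arrays, and the part of muscle or fat tissue in other results was not tested.

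**Figure D4:**
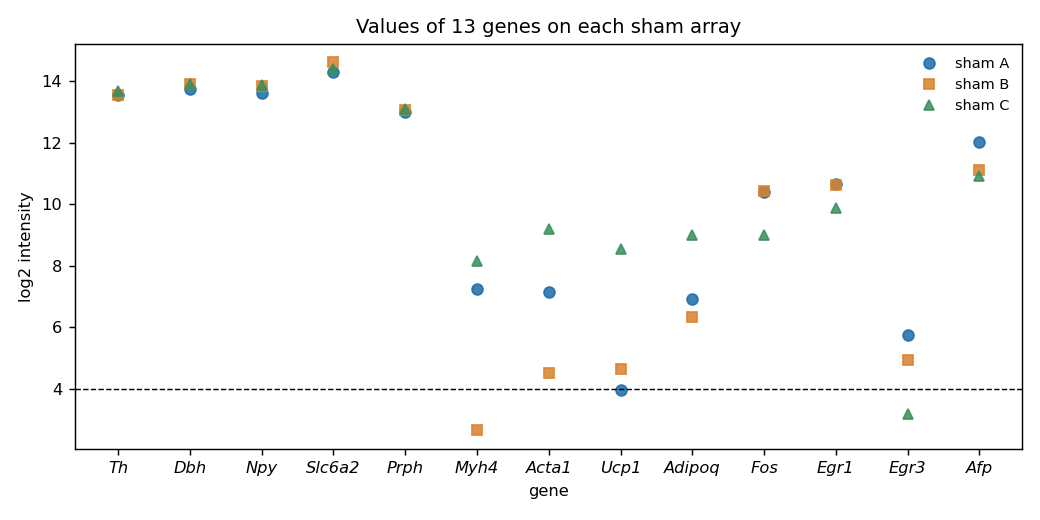
log2 intensity of 13 genes on each of the 3 sham arrays (circles sham A, squares sham B, triangles sham C; dashed line, the floor of 4). The 5 sympathetic markers overlap between arrays, while Myh4 runs from 2.65 on sham B to 8.17 on sham C and Ucp1 from 3.98 on sham A to 8.53 on sham C.

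**Figure D5:**
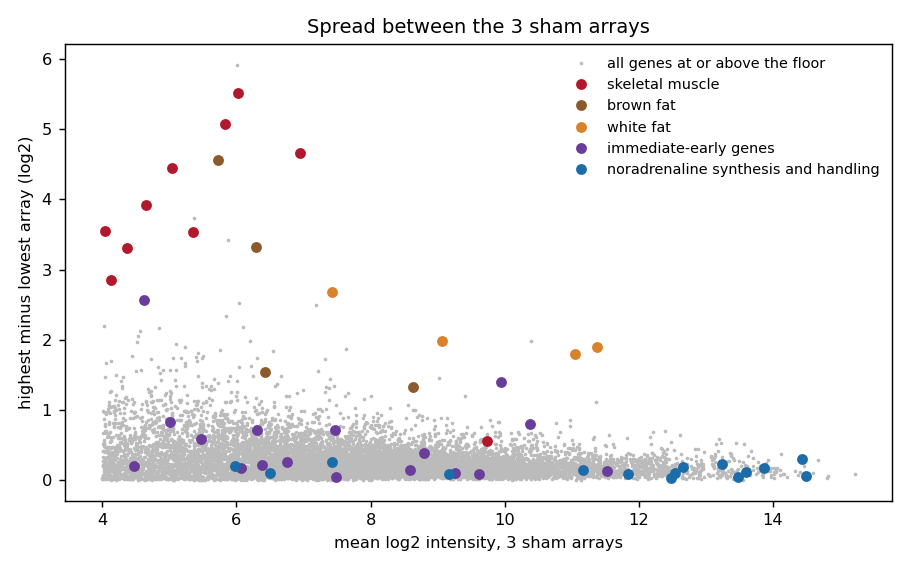
Range between the highest and lowest sham array (vertical axis, log2) against mean log2 intensity (horizontal axis) for the 9957 genes, with 5 lists in colour. Muscle and fat genes rise far above the median range of 0.23, with Myh4 at 5.52, whereas the noradrenaline genes stay near the bottom.

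Immediate-early genes, which neurons switch on with activity, had a median range of 0.25 among those at the floor, close to the 0.23 of all genes. Jund was brightest at 11.45, 11.57 and 11.57. Fos measured 10.40, 10.42 and 9.02 and Egr1 10.66, 10.61 and 9.87, so both were lowest on sham C. Egr3 measured 5.74, 4.92 and 3.18. Of 24 immediate-early genes 17 (70.8%) reached the floor, against 54.7% of all genes, and Fosb, Arc and Npas4 measured 2.34 or less. Alpha-fetoprotein (Afp), a fetal liver protein, was at 12.04, 11.12 and 10.92 (rank 638). Of its 5 probe sets, another read 9.88 and the other 3 were below the floor. Albumin (Alb), its neighbour in the family, measured 5.05, 6.37 and 6.67. The probe set shared by both alpha-globin genes, which the ranking left out, read 13.75, 12.52 and 13.26, lowest on sham B. The median over all 5 measured red-cell markers was 5.27, 4.28 and 4.31, so sham B and C were alike there. Of these markers 3 reached the floor, between 4.82 and 6.24.

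The brightest genes were largely shared with the TAC animals, whose values did not enter the choice of genes. Only the 9957 genes at the floor on sham, each on its sham probe set, were ranked on the TAC arrays. A gene bright only on TAC could not enter, which favours overlap. Of the 100 brightest sham genes, 90, 89 and 90 were among the 100 brightest on TAC A, B and C, beside 92, 94 and 96 on sham A, B and C, whose own values set the list. Among the 1000 brightest, 96.9%, 94.2% and 96.2% were shared. Slc6a2 ranked between 6 and 12 on all 6 arrays, Dbh between 30 and 48 and Prph between 119 and 144. Th ranked 62, 60 and 55 on the sham arrays and 45, 40 and 38 on the TAC arrays. Npy did not keep its place either: it ranked 58, 39 and 36 on the sham arrays and 10, 4 and 6 on the TAC arrays. The sources used here do not say whether the 6 arrays were normalized together, and the comparison is a description with no test.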

How the data were processed

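The authors' deposited table gives a linear GCRMA intensity for each probe set and array, per the submitters' processing notes. Which version of GCRMA was run, and how it was set, is not given in the sources used here. There were 45037 probe sets besides 64 control sets. GEO's platform annotation gave 1 symbol to 34945 of the former, several to 932 and none to 9160. Values were log2-transformed with no pseudocount, control sets were left out, the 3 sham arrays were averaged, and each gene was represented by its probe set of highest mean among sets with 1 symbol. Genes with a mean of at least 4 were ranked. Percentile is the share of these genes ranked lower. Antisense, overlapping and pseudogene symbols were dropped from lists drawn by name pattern after the values were seen.

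The members and gene lists were chosen with earlier results of these data known. By rule, genes could be named from the 25 brightest, the brightest, dimmest and defining members of each list, the 20 of widest range and 3 on each side of the floor; for long lists only some of these are given, and the globin and Rps16 sets with several symbols were picked after their values were seen. No test was made, because a single group has no comparison. Each array is taken as 1 animal. The number of arrays limits the precision, and intensities carry no counting error that could be computed. The array controls for 3' against 5' signal differed by 1.72 to 1.92 for Actb and by 0.20 to 0.29 for Gapdh. Promoter windows came from RefSeq. The ranking procedure was tested on simulated data. Calculations used Python, pandas and numpy.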

Additional observations from a re-analysis of the deposited data

How the results depend on the processing

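No paired analysis was possible because the result comes from no test. The count of 9957 genes stayed within 1.5 times under all alternatives tried: 9034 with a floor of 5, 7889 with a floor of 6, 9760 with the floor required on each array, 9954 after quantile normalization, 9540 without probe sets ending in _x_at or _s_at, and 9936 to 9960 without 1 sham array. Each of the 66 lists with a median percentile moved by more than its spread between arrays under at least 1 setting. For the 4 neuronal lists the values were as follows, none below 87.6. Noradrenaline handling (97.9) gave 98.3 with the mean of all probe sets, 98.8 with no floor, 97.5 with a floor of 6 and 98.4 without _x_at and _s_at sets. Granins (94.0) gave 95.2, 95.5 with no floor and 95.1 without those sets. Synaptic vesicle genes (93.2) gave 87.6, 95.0, 91.4 and 92.3 in that order, and neuronal cytoskeleton (97.9) gave 94.3, 98.8, 97.4 and 98.1. The lowest share of brightest sham genes found again on a TAC array was 89.0% for 100 genes and 94.2% for 1000. Over all lists, 47 of 66 stayed on the same side of the 50th percentile with no floor, 53 of 61 with a floor of 6, 55 of 64 with the mean of all probe sets, 61 of 64 without _x_at and _s_at sets and 65 of 65 after quantile normalization. Among them, sensory neuron markers (2.60) gave 49.4 without sham C, and 95.8 with a floor of 6, and MHC genes (65.6) gave 31.4 without _x_at and _s_at sets. Of the 25 brightest genes, 9 rest on _x_at or _s_at sets, which can bind related transcripts, and 17 were among the brightest 25 without such sets.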
